A study of Mus musculus with 10 samples.

Results

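The genes described here encode the intracellular relay of canonical Wnt signaling, namely β-catenin (Ctnnb1), the core of the destruction complex that degrades it (Apc, Axin1, Gsk3a, Gsk3b and Csnk1a1) and the DNA-binding partners through which it acts in the nucleus (Tcf7, Tcf7l1, Tcf7l2 and Lef1). They were chosen by name for these roles, as 10 of the 16875 gene names for which an expression value was given, and all 10 passed the filter on low values that left 16757 genes for testing. Between colon tumors with and without epithelial Wls, Tcf7 was 54.3% lower and Ctnnb1 was 19.3% lower in Villin-WlscKO tumors, whereas no gene of the destruction complex core passed the threshold. Both genes were lower in each of 22 alternative settings, in which Tcf7 passed the threshold 22 times and Ctnnb1 15 times. By a permutation test adjusted over all genes, neither passed, nor did any other gene. Both reached the smallest p that this test can give.

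In the absence of a Wnt signal, APC and the scaffold AXIN hold β-catenin while casein kinase 1α and then GSK3 phosphorylate it, which marks it for ubiquitination and degradation. A Wnt ligand bound at the cell surface draws AXIN away from this complex, and the β-catenin that is spared enters the nucleus and binds TCF/LEF factors, which otherwise repress their targets together with co-repressors of the TLE family. The intestinal epithelium depends on this relay to keep its stem cells, colon tumors often carry mutations that disable APC or stabilize β-catenin, and AXIN2, TCF7 and LEF1 are themselves known as genes that β-catenin can induce.

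RNA sequencing covered 5 control and 5 Villin-WlscKO tumors from mice of the C57BL/6 background, which were between 6 and 10 weeks old when the experiment began. Tumors of both groups had been induced with azoxymethane (AOM), a carcinogen, followed by 3 cycles of 2% dextran sulfate sodium (DSS), which inflames the colon. Both groups carried the conditional Wls flox/flox alleles. Villin-WlscKO mice also carried Villin-CreERT2, in which a tamoxifen-activated recombinase is driven by the promoter of an intestinal epithelial gene, and received 5 injections of tamoxifen at 80 mg/kg, the first of them 30 days before the tumors were taken. Wls encodes the carrier that brings Wnt ligands to the cell surface, so the comparison asks what the loss of Wnt secretion from epithelial cells does to established tumors. The tumors were macrodissected pieces that hold stroma and immune cells beside epithelium, and the sources used here do not say how many mice they came from. Here n counts tumors, and p-values set the difference between groups against the spread between these tumors. If some tumors came from the same mouse, they may not be independent, and the p-values may be too small. In such pieces, fewer cells of a type and less RNA per cell cannot be told apart.

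Wls, the deleted gene, had a mean of 72.9 ± 7.06 FPKM in the control group and of 6.37 ± 4.89 FPKM in the Villin-WlscKO group (SD, n = 5 each). FPKM, the number of fragments scaled to transcript length and to the fragments mapped in the library, corrects for length, so levels of different genes can be set side by side. Read numbers were not given with it, so the depth behind each value is unknown. Epcam, a marker of epithelial cells, was between 911 and 1321 FPKM in the 10 tumors. Genotype was not the only difference: Xist, transcribed from the inactive X chromosome of females, reached at most 0.420 FPKM in any control and at least 439 FPKM in each Villin-WlscKO tumor, and the sources used here describe tamoxifen for the latter, so that genotype, sex and tamoxifen cannot be told apart. Villin-WlscKO tumors 2 and 3 stood apart from the other 8, with Krt5, a keratin of stratified squamous epithelium, at 470 and 669 FPKM against at most 0.315 FPKM elsewhere.

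Each change given here is the Villin-WlscKO mean of log2(FPKM + 1) less the control mean, with its standard error and with a p-value from limma, a linear model fitted across genes, adjusted by the Benjamini-Hochberg method over all 16757 genes. A gene was called at an adjusted p under 0.05. Of all genes tested 10.9% were called, with 4.75% lower in the Villin-WlscKO group, 6.12% higher in it and a median change of 0.0073. Of the 10 genes, 2 were called lower and 0 higher. In the same 2 the 5 Villin-WlscKO values all lay below the 5 control values, which held for 4.76% of all genes, while the opposite held for 5.33% of all genes and for 0 of the 10. An exact permutation test, two-sided and run over the 252 ways to divide the tumors, gave Tcf7 and Ctnnb1 the smallest p it can give, 0.00794, which becomes 0.0787 after adjustment over all genes. By that adjustment 0 of the 16757 genes pass, although 4083 have an unadjusted permutation p under 0.05.

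**Figure D1:**
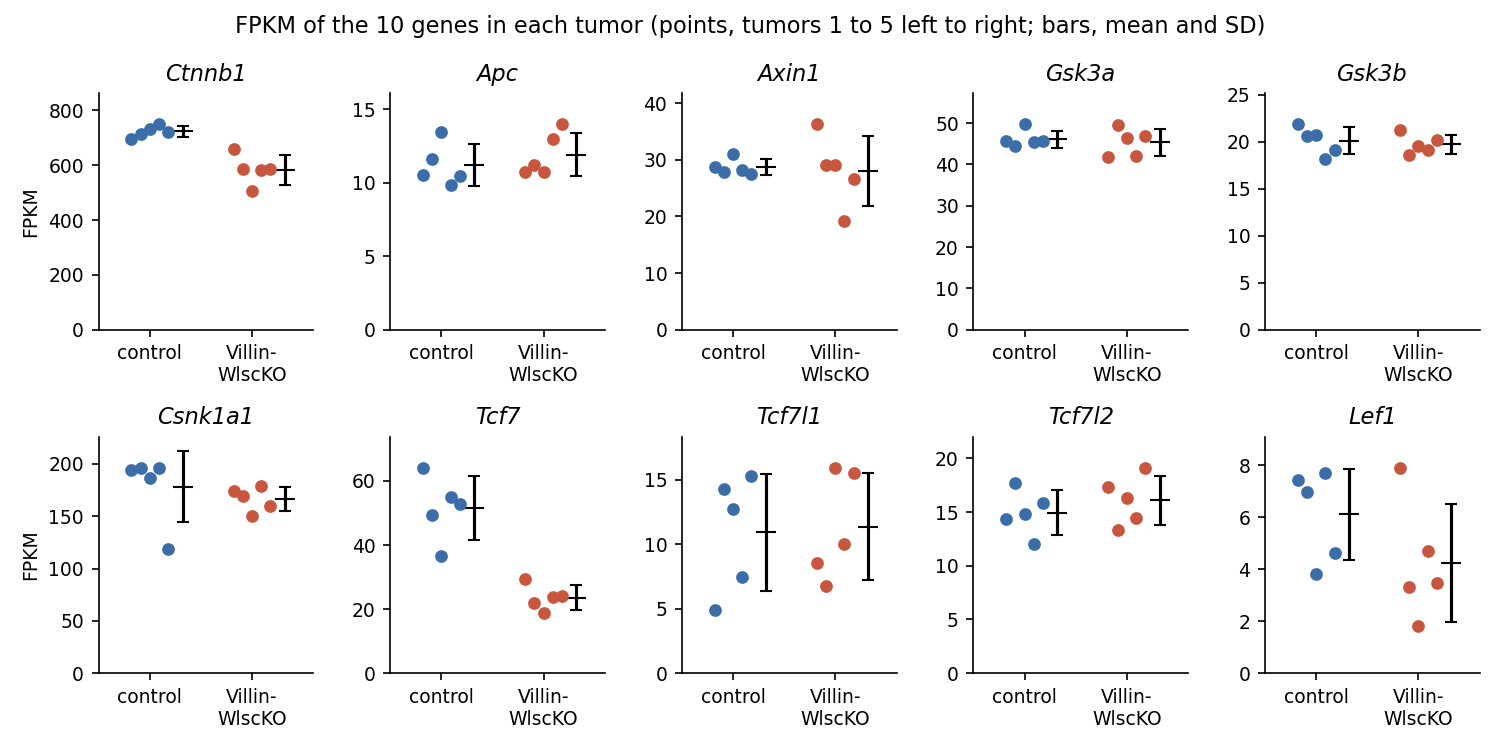
Each panel shows the FPKM of 1 gene in the 5 control (blue) and the 5 Villin-WlscKO tumors (red), with tumors 1 to 5 from left to right in each group, on a linear axis that starts at 0. Bars give the mean and SD. The groups do not overlap for Ctnnb1 and Tcf7, and overlap for the other 8 genes.

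For the genes at the nuclear end of the relay that had an entry in the RefSeq promoter table (GRCm38.p6), the letters before the start site were searched for the core motif of TCF/LEF proteins. The 250 bases before an annotated start are shown for Ctnnb1, which fell, for Lef1, itself a known Wnt target, and for Tcf7l2, which was not called. Capitals mark CTTTG, the core to which TCF/LEF proteins bind, on the given strand, or CAAAG, the same core on the other strand.
Ctnnb1, chr9:120933150-120933399, plus strand: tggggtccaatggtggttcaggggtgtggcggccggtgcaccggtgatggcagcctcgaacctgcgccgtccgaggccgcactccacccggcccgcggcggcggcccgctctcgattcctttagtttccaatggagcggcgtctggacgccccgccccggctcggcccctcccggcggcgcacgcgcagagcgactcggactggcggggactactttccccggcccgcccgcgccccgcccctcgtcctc
Lef1, chr3:131110047-131110296, plus strand: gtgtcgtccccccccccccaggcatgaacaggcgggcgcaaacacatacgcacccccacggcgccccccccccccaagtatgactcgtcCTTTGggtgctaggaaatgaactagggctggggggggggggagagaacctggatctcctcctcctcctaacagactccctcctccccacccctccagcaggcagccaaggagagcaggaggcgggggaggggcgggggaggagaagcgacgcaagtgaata
Tcf7l2, chr19:55741560-55741809, plus strand: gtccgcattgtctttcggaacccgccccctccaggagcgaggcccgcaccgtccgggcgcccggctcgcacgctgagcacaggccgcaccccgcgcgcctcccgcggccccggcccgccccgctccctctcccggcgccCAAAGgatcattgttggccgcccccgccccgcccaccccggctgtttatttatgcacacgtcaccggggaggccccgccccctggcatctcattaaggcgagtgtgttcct
The core was not found in the Ctnnb1 bases, began 161 bases before the start on the given strand of Lef1 and 111 bases before it on the opposite strand of Tcf7l2.

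Windows of this kind were taken for 7 of the 10 genes, 13 windows in all, some of them overlapping, and 9 of the 13 held the core on either strand. Over the 32851 windows of all genes, the core was present in 48.6%. The longer forms CTTTGAT and CTTTGAA, on either strand, were found in 3.21% and 4.46% of all windows and, either of them, in 1 of the 13, which belongs to Gsk3a. For each gene shown, only 1 of its windows is printed. The core was found 2, 1 and 3 times in the other windows of Lef1, 1 time in that of Tcf7l2 and 0 times in that of Ctnnb1. The windows of Tcf7 and Tcf7l1 are not shown, since a window of each overlaps an annotated exon and the other start given for Tcf7 may not be that of its longest transcript. The Ctnnb1 window that is not printed overlaps an annotated exon as well. Both windows of Tcf7 held 0 cores, but the bases before the start of its longest transcript may not have been searched. No window was found for Axin1. Apc and Csnk1a1 lie on chromosome 18, whose windows were left out of the search for the 10 genes. A match of 5 letters is a description of the sequence and not a binding site.

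Tcf7 encodes TCF1, a TCF/LEF factor made by stem and tumor cells of the intestine and by T cells, and it showed the largest difference of the 10 genes. The gene lies on the minus strand of chromosome 11, from 52252371 to 52283014 in GRCm38 (GENCODE M21). Its level was 64.1, 49.5, 36.4, 54.9 and 52.8 FPKM in control tumors 1 to 5. In Villin-WlscKO tumors 1 to 5 it was 29.5, 21.8, 18.8, 23.6 and 24.1 FPKM. The lowest control tumor, tumor 3, was thus above the highest Villin-WlscKO tumor, tumor 1. Mean levels were 51.6 ± 10.04 FPKM (SD, n = 5) and 23.6 ± 3.92 FPKM (SD, n = 5), and the change on the log2 scale was -1.09, standard error 0.15 (adjusted p = 0.00156 in limma). FPKM per gene name does not separate transcripts that encode the β-catenin-binding end of TCF1 from shorter ones that lack it, so the level of either form is not known from these values.

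The span of an antisense gene, A630014C17Rik, shares 6960 bases with that of Tcf7 on the opposite strand, introns included. Overlap of exons was not examined. The libraries were made with a stranded kit. The setting for strand in the software is not named in the sources used here, which give default parameters. A630014C17Rik was chosen after its values were seen. A630014C17Rik fell from 1.16 ± 0.272 to 0.256 ± 0.0743 FPKM (SD, both n = 5), and the change on the log2 scale was -0.77, standard error 0.12 (adjusted p = 0.00297 in limma), and its groups did not overlap. If strand was not used, reads of any exon bases shared by both genes cannot be told apart. The level of the antisense gene was far below that of Tcf7 in both groups.

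Lef1, the second TCF/LEF factor known as a Wnt target, had the lowest level of the 10 genes. It lies on the plus strand of chromosome 3, from 131110471 to 131224356. Control tumors 1 to 5 had 7.44, 6.96, 3.81, 7.68 and 4.63 FPKM. Villin-WlscKO tumors 1 to 5 had 7.89, 3.30, 1.81, 4.68 and 3.48 FPKM. Tumor 1 of the Villin-WlscKO group was above every control tumor, while tumors 2, 3 and 5 were below every control tumor, so the groups overlapped. Mean levels were 6.10 ± 1.76 FPKM (SD, n = 5) and 4.23 ± 2.29 FPKM (SD, n = 5). The log2 change was -0.51 (standard error 0.29, 95% interval -1.15 to 0.14) and stayed short of the threshold (adjusted p = 0.309 in limma). Lef1 was lower by this measure in each of 22 alternative settings and past the threshold in 0 of them. Its change was -0.72 without Villin-WlscKO tumor 1, at an adjusted p of 0.0995 in limma, and -0.18 without Villin-WlscKO tumors 2 and 3. By immunostaining, the study reported less or no Lef1 protein in Villin-WlscKO tumors. These RNA values do not measure protein.

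Tcf7l2 encodes TCF4, the factor that the stem cells of the normal intestine require. It lies on the plus strand of chromosome 19, from 55741820 to 55933654. Its level was 14.4, 17.7, 14.8, 12.0 and 15.9 FPKM in control tumors and 17.3, 13.4, 16.3, 14.5 and 19.1 FPKM in Villin-WlscKO tumors, in the order of their numbers. The groups overlapped between 13.4 and 17.7 FPKM, and the log2 change was 0.10 (standard error 0.12, 95% interval -0.16 to 0.37, limma adjusted p = 0.650). The interval does not hold a fall of the size seen for Tcf7.

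Tcf7l1 encodes TCF3, which acts mostly as a repressor of Wnt targets. It lies on the minus strand of chromosome 6, from 72626378 to 72789254. Its level was 4.88, 14.3, 12.7, 7.48 and 15.3 FPKM in control tumors 1 to 5 and 8.57, 6.77, 15.9, 10.04 and 15.6 FPKM in Villin-WlscKO tumors 1 to 5. It varied more than 3-fold within the control group, and its range in Villin-WlscKO tumors covered much the same span. The log2 change was 0.087 (standard error 0.32, 95% interval -0.62 to 0.80, limma adjusted p = 0.901), so a difference of moderate size in either direction was not detectable with this spread. The span of an antisense gene, Gm15401, chosen after its values were seen, shares 8430 bases with that of Tcf7l1, introns included. The level of Gm15401 ranged from 3.47 to 13.8 FPKM in the controls and from 2.84 to 19.2 FPKM in the Villin-WlscKO group, near that of Tcf7l1 itself. If strand was not used, reads of any shared exon bases cannot be told apart.

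Set side by side within each tumor, the 4 factors made up a different mix in the 2 groups, which is given here as a description without a test because it restates the values above. Tcf7 made up 61.4% ± 7.18 (SD, n = 5) of the summed FPKM of the 4 factors in control tumors and 42.8% ± 5.38 (SD, n = 5) in Villin-WlscKO tumors. Tcf7l2 made up 18.05% ± 2.96 and 29.2% ± 1.71 (SD, n = 5 in each group), and Tcf7l1 made up 13.3% ± 5.79 and 20.5% ± 6.98. The share of Lef1 was 7.25% ± 1.76 and 7.53% ± 3.42. The summed level itself was 83.5 ± 9.40 FPKM in the controls and 55.3 ± 7.52 FPKM in the Villin-WlscKO group (SD, n = 5 each). Tcf7 exceeded Tcf7l2 by 2.46 to 4.57 times in control tumors and by 1.16 to 1.70 times in Villin-WlscKO tumors, so that Tcf7 stayed the most abundant factor in each of the 10 tumors. These shares and ratios do not depend on how the tumors are scaled against each other.

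**Figure D2:**
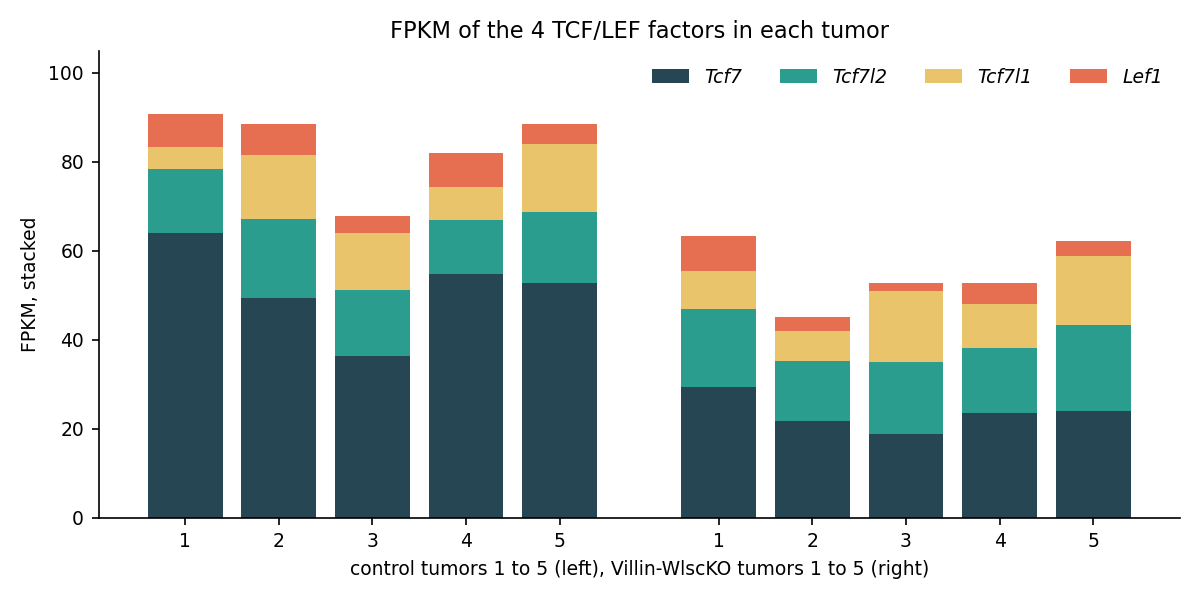
Stacked bars show the FPKM of Tcf7, Tcf7l2, Tcf7l1 and Lef1 in each of the 10 tumors, on a linear axis that starts at 0. The summed level ranges from 67.8 to 90.8 FPKM in the controls and from 45.2 to 63.3 FPKM in the Villin-WlscKO group, and the Tcf7 segment of each Villin-WlscKO tumor is shorter than that of every control tumor.

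Ctnnb1 was by far the most abundant of the 10 genes. It lies on the plus strand of chromosome 9, from 120929216 to 120960507, and its 10 values are also listed under the name of a microRNA inside the gene, mmu-mir-7090, as one locus. The RefSeq start shown above lies within this longer GENCODE span. Its level was 696, 715, 734, 749.6 and 723 FPKM in control tumors 1 to 5. In Villin-WlscKO tumors 1 to 5 it was 658, 587, 505, 584 and 586 FPKM. The 2 groups did not overlap, all Villin-WlscKO values being the lower ones, with tumor 3 lowest and tumor 1 nearest to the controls. Mean levels were 724 ± 19.9 FPKM (SD, n = 5) and 584 ± 54.1 FPKM (SD, n = 5), and the change on the log2 scale was -0.31, standard error 0.076 (adjusted p = 0.0249 in limma). Ctnnb1 was lower in each of 22 alternative settings and past the threshold in 15 of them. Among the settings in which the call was lost were those without Villin-WlscKO tumor 3 and without control tumor 2, 4 or 5 (limma adjusted p between 0.0506 and 0.0617), without Villin-WlscKO tumors 2 and 3 together (log2 change -0.25, limma adjusted p = 0.103) and when all tumors were rescaled to the same FPKM sum (-0.21, limma adjusted p = 0.219). Quantile normalization gave the largest difference, -0.54 (limma adjusted p = 0.00388). mRNA levels do not report the amount or the place of β-catenin protein, which the destruction complex sets after translation.

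Ctnna1 (α-catenin), Jup (plakoglobin, a close relative of β-catenin) and Ctnnd1 (p120-catenin, which shares its values with the names Gm28635 and Tmx2) had log2 changes of 0.035, 0.010 and 0.045 and were not called. Of the 10 cadherin and catenin partners tested, 1 was called higher and 0 lower, beside 6.12% and 4.75% of all genes, with a median change of 0.025 against 0.0073 over all genes. The one that rose was Pkp4, a catenin of cell junctions, from 22.4 ± 1.40 to 33.2 ± 4.89 FPKM (SD, both n = 5), a log2 change of 0.54 (limma adjusted p = 0.00592).

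None of the 5 genes of the destruction complex core was called, and the 95% intervals of their log2 changes together lay within -0.38 to 0.32. The fitted change was below 0 for Axin1, Gsk3a, Gsk3b and Csnk1a1 and turned positive for these 4 when the tumors were rescaled to the same FPKM sum. Apc encodes the large scaffold that is lost in most human colon cancers. In AOM/DSS tumors of this background, the study detected no coding mutations of Apc, Ctnnb1 or other core Wnt components by exome sequencing. Apc lies on chromosome 18 from 34220924 to 34322552, on the plus strand. Its level was 10.5, 11.6, 13.5, 9.85 and 10.5 FPKM in control tumors and 10.7, 11.2, 10.8, 13.0 and 14.0 FPKM in Villin-WlscKO tumors. The groups overlapped, and the log2 change, 0.085 (standard error 0.11), had an adjusted p of 0.676 in limma.

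Axin1, on the plus strand of chromosome 17 from 26138688 to 26195811, encodes the scaffold that is made at a steady level in most cells. Control tumors had 28.8, 27.8, 31.1, 28.3 and 27.5 FPKM, and Villin-WlscKO tumors had 36.3, 29.1, 29.2, 19.1 and 26.6 FPKM. Villin-WlscKO tumors 1 and 4 were above and below every other tumor, so that the group was more spread than the controls at nearly the same mean. The log2 change, -0.058 (standard error 0.14), had an adjusted p of 0.840 in limma. Axin2, its relative and a target of the pathway, was at 158 ± 14.9 and 96.5 ± 10.9 FPKM (SD, n = 5 in each group) and was called lower. Axin2 was thus the more abundant of the pair in each of the 10 tumors, by 4.64 to 6.28 times in control tumors and by 2.70 to 5.24 times in Villin-WlscKO tumors.

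Gsk3a and Gsk3b encode the paralogous kinases GSK3α and GSK3β, which act in the complex interchangeably and which have many other substrates. Gsk3a lies on the minus strand of chromosome 7, from 25228258 to 25237851, and Gsk3b on the plus strand of chromosome 16, from 38089001 to 38246084. The level of Gsk3a was 45.6, 44.4, 49.7, 45.3 and 45.7 FPKM in control tumors and 41.9, 49.4, 46.3, 42.1 and 47.0 FPKM in Villin-WlscKO tumors. That of Gsk3b was 21.9, 20.6, 20.7, 18.2 and 19.1 FPKM in control tumors and 21.3, 18.6, 19.5, 19.1 and 20.2 FPKM in Villin-WlscKO tumors. Neither pair of ranges was separate, and these were the steadiest of the 10 genes, the highest of the 10 tumors exceeding the lowest by 1.19 and 1.2 times. The log2 changes were -0.027 (95% interval -0.17 to 0.12) and -0.024 (95% interval -0.18 to 0.13), with limma adjusted p of 0.843 and 0.869. Gsk3a made up 69.7% ± 1.63 and 69.6% ± 2.32 (SD, n = 5 in each group) of the summed FPKM of the pair.

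Csnk1a1 encodes casein kinase 1α, which places the first phosphate on β-catenin. It lies on chromosome 18 from 61555274 to 61590061, on the plus strand. Its level was 194, 196, 187, 196 and 119 FPKM in control tumors and 175, 169, 151, 179 and 159.9 FPKM in Villin-WlscKO tumors. Control tumor 5 was below all 9 others, and the other 4 control tumors were above every Villin-WlscKO tumor. The log2 change, -0.075 (standard error 0.14), had an adjusted p of 0.789 in limma, and without control tumor 5 the change was -0.21 (limma adjusted p = 0.0917), still short of the threshold.

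In control tumors the order of levels was Ctnnb1, Csnk1a1, Tcf7, Gsk3a, Axin1, Gsk3b, Tcf7l2, Apc, Tcf7l1 and Lef1. The ranges of Ctnnb1, Csnk1a1, Axin1 and Gsk3b were separate from those of their neighbors, Tcf7 and Gsk3a overlapped, and from Tcf7l2 downward each gene overlapped the next. In Villin-WlscKO tumors Tcf7 ranked 5 from the top, where its range overlapped those of Axin1 and Gsk3b. The other 9 genes kept their order among themselves.

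**Figure D3:**
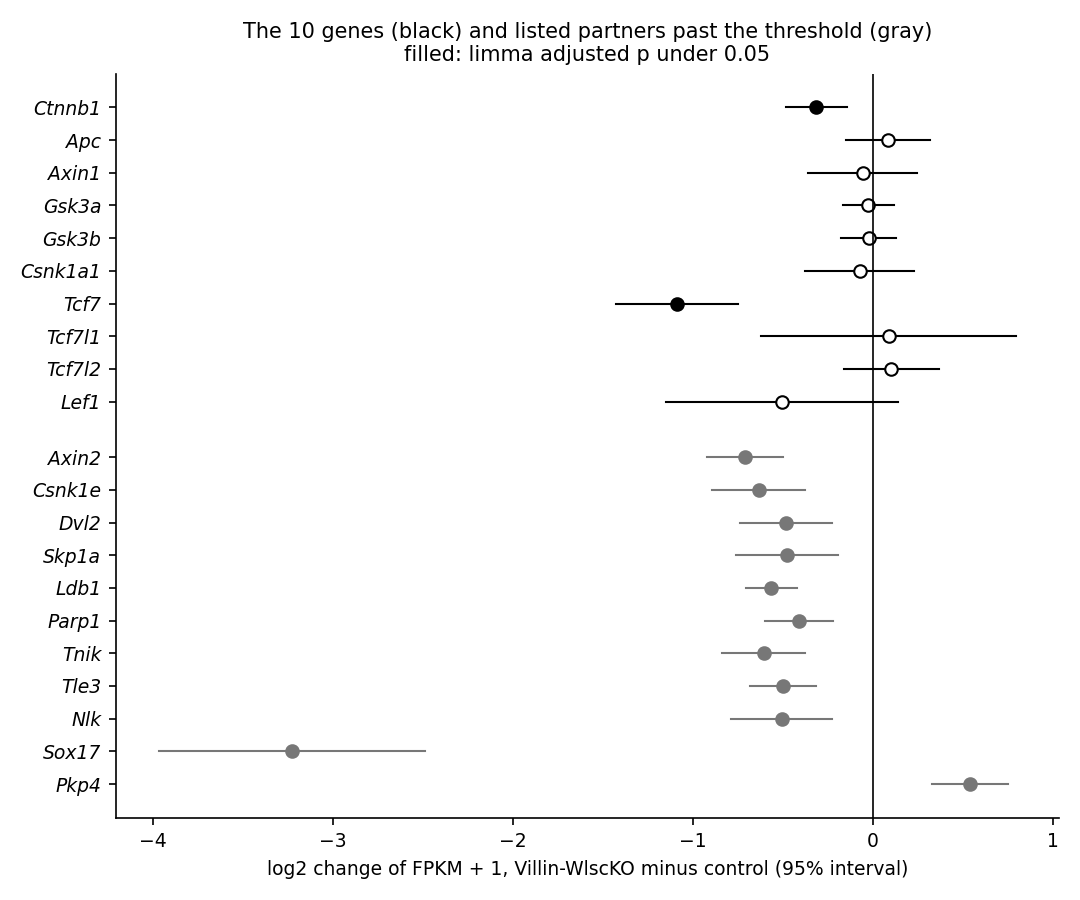
Points show the log2 change of FPKM + 1, Villin-WlscKO minus control, of the 10 genes (black) and of the genes from 4 lists of their partners that passed the threshold (gray), with 95% intervals from limma on a linear axis. Filled points have an adjusted p under 0.05. Of the 10 genes, Tcf7 lies farthest from 0 at -1.09, and the intervals of the 5 destruction complex genes all cross 0.

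Further genes of the relay were taken from lists of known partners. Of 34 other genes of the destruction complex and of β-catenin turnover, 4 were called lower and 0 higher, and the median change was -0.11. Those that fell were Axin2 (log2 change -0.71), Csnk1e (-0.63), a casein kinase 1 that can act in favor of the signal, Dvl2 (-0.48), which relays the signal from the receptor and shares its values with the name Mir324, and Skp1a (-0.48), an adaptor of the ubiquitin ligase that recognizes β-catenin. Their limma adjusted p were 0.00121, 0.00691, 0.0236 and 0.0388. Csnk1e was at 92.9 ± 10.9 and 59.8 ± 9.49 FPKM (SD, n = 5 in each group). The phosphatase genes Ppp1ca and Ppp2r1a and the helicase gene Ddx3x, the most abundant of the rest, had log2 changes of -0.11, 0.047 and 0.018 and were not called.

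Among nuclear co-activators, 3 of 20 were called lower and 0 higher (median -0.096). These were Ldb1, a cofactor that bridges β-catenin complexes on DNA, from 101 ± 8.19 to 67.6 ± 2.1 FPKM (SD, both n = 5, log2 change -0.56), the TCF-binding kinase gene Tnik (-0.61), and Parp1 (-0.41), which shares its values with the name Mir6904. Their limma adjusted p were 0.000473, 0.00478 and 0.0130. Smarca4 (which shares its values with the name Gm27373), Ruvbl2 and Paf1, which encode parts of general chromatin and elongation complexes, had changes of -0.054, 0.049 and -0.067 and were not called.

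Among nuclear co-repressors and inhibitors, 3 of 19 were called lower and 0 higher (median -0.13). Tle3, a co-repressor that TCF/LEF proteins bind in the absence of β-catenin, fell from 49.7 ± 4.06 to 34.9 ± 3.44 FPKM (SD, both n = 5, log2 change -0.50, limma adjusted p = 0.00409). Nlk, a kinase that acts on TCF/LEF proteins, fell by 0.51 on the log2 scale (limma adjusted p = 0.0287). Sox17, which can bind β-catenin and TCF proteins, fell by 3.23 on the log2 scale (limma adjusted p = 0.000234). Aes, Ctbp1 and Ctbp2, the last of which shares all its values with the name Fgfr2 and cannot be assigned to either gene, had changes of -0.039, -0.061 and -0.15 and were not called. The share of called genes in these 3 lists, 4 of 34, 3 of 20 and 3 of 19, is to be read beside the 10.9% of all genes called in either direction and the 4.75% called lower. Without Villin-WlscKO tumors 2 and 3 the numbers called lower were 3, 3 and 2. Of 19 known Wnt target genes, 6 were called lower and 0 higher (median -0.36), the 6 being Axin2, Notum, Apcdd1, Znrf3, Sp5 and Dkk3. The study itself had named several of these from the same tumors, so the count is not independent evidence of a direction. Ccnd1, Myc and Cd44 had changes of 0.17, 0.063 and 0.26 and were not called.

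For each TCF/LEF factor, the genes with the most similar profile were those with the smallest root-mean-square difference in log2(FPKM + 1), each gene centered on its own mean, over the 10 tumors. For Tcf7 they were Btaf1 (0.125), Rbms3 (0.132) and Nrep (0.165), which had log2 changes of -1.09, -1.03 and -1.06. For Lef1 they were Gm26735 (0.217), Hagh (0.222) and Cnn3 (0.232), none of which was called. Those of Tcf7l2 were 9130011E15Rik (0.0679), Lima1 (0.0727) and Plekhh1 (0.0763), and those of Tcf7l1 were Tph1 (0.176), Prkacb (0.208) and Steap3 (0.228). The measure follows the size of the differences, so the steady Tcf7l2 has closer neighbors than the variable Lef1.

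Tcf7 and Lef1 are also made by T cells, so the markers of that cell type are given beside them. Of 15 T cell markers tested, 8 were called higher in Villin-WlscKO tumors and 0 lower (7 of 14 with names of identical values counted once), and their median change was 0.71. Over all genes 6.12% were called higher and 4.75% lower, and the median change was 0.0073. The summed FPKM of the 14 was between 21.6 and 34.8 in control tumors and between 36.9 and 73.4 in Villin-WlscKO tumors. Cd3e encodes a subunit of the T cell receptor complex. Its level ranged from 0.291 to 0.517 FPKM in the controls and from 0.802 to 1.67 FPKM in the Villin-WlscKO group. Cd4 and Lck (which shares its values with the name Mir8119) were not called. The fitted change was above 0 for 13 of the 15 markers and below 0 for 2, Cd4 (log2 change -0.049) and Zap70. Zap70, chosen after its values were seen, had a log2 change of -0.38 (standard error 0.17, adjusted p = 0.182 in limma) and was not called. The summed level of T cell markers was thus higher in each tumor of the group in which Tcf7 was lower. Without Villin-WlscKO tumors 2 and 3 only 2 of the 15 markers were called. The part of T cells in the Tcf7 and Lef1 values was not tested.

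**Figure D4:**
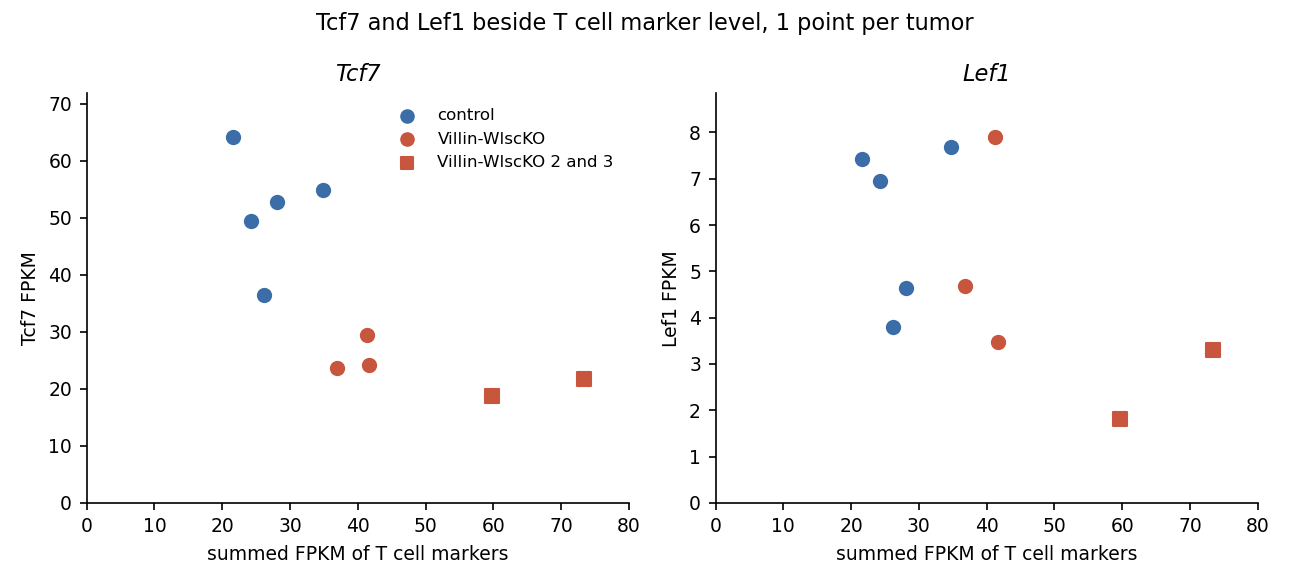
The FPKM of Tcf7 (left) and of Lef1 (right) is plotted against the summed FPKM of 14 T cell markers, with 1 point per tumor on linear axes that start at 0. Control tumors are blue, Villin-WlscKO tumors red, and squares mark Villin-WlscKO tumors 2 and 3. The 5 Villin-WlscKO tumors lie to the right of the 5 control tumors, with T cell sums of at least 36.9, and below them for Tcf7 but not for Lef1.

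Counts of markers of other cell types are to be read beside the 6.12% of all genes called higher and the 4.75% called lower. Of 13 pan-epithelial markers 0 were called (median change 0.25), with a summed FPKM between 8122 and 11749 in control tumors and between 10281 and 13954 in Villin-WlscKO tumors. The largest term of this sum, Krt19 (2317 to 4525 FPKM), shares all its values with the names Krt13 and Krt17 and cannot be assigned to any of the genes. The fitted change was above 0 for 12 of the 13 markers and below 0 for Cldn4, a tight junction gene chosen after its values were seen (log2 change -0.40, 95% interval -0.73 to -0.08, adjusted p = 0.114 in limma). Among fibroblast markers 1 of 12 was called higher (Fbln1), among B and plasma cell markers 1 of 6 (Mzb1), and among 10 endothelial, 9 macrophage and 7 smooth muscle markers 0 were called in either direction. The fitted change was above 0 for all 6 B and plasma cell markers (median 0.76) and all 7 smooth muscle markers (median 0.34). It was above 0 for 7 of 12 fibroblast, 4 of 10 endothelial and 4 of 9 macrophage markers. The summed FPKM of B and plasma cell markers was between 26.9 and 128 in control tumors and between 68.7 and 358 in Villin-WlscKO tumors. Of 10 squamous epithelium markers 2 were called higher (Sprr1a and Sfn). Without Villin-WlscKO tumors 2 and 3, 0 squamous and 0 B and plasma cell markers were called. The summed FPKM of the squamous markers was between 156 and 296 in control tumors, 1387 and 1712 in Villin-WlscKO tumors 2 and 3, and between 242 and 324 in the other 3. Trp63, the transcription factor of squamous basal cells, was at 16.3 and 17.0 FPKM in the former and at most 0.0649 FPKM in the other 8 tumors.

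The tumors with squamous keratins also held the lowest values of the 2 Wnt-inducible factors. They also had the most Wls of their group, 11.6 FPKM in tumor 2 and 11.7 FPKM in tumor 3, against 2.03 to 3.61 FPKM in Villin-WlscKO tumors 1, 4 and 5. Tcf7 and Lef1 were lowest in Villin-WlscKO tumor 3 and second lowest in Villin-WlscKO tumor 2, and Ctnnb1 was lowest in tumor 3. Without both tumors the change of Tcf7 was -0.96 (limma adjusted p = 0.0144) and remained past the threshold, while that of Ctnnb1 did not pass.

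**Figure D5:**
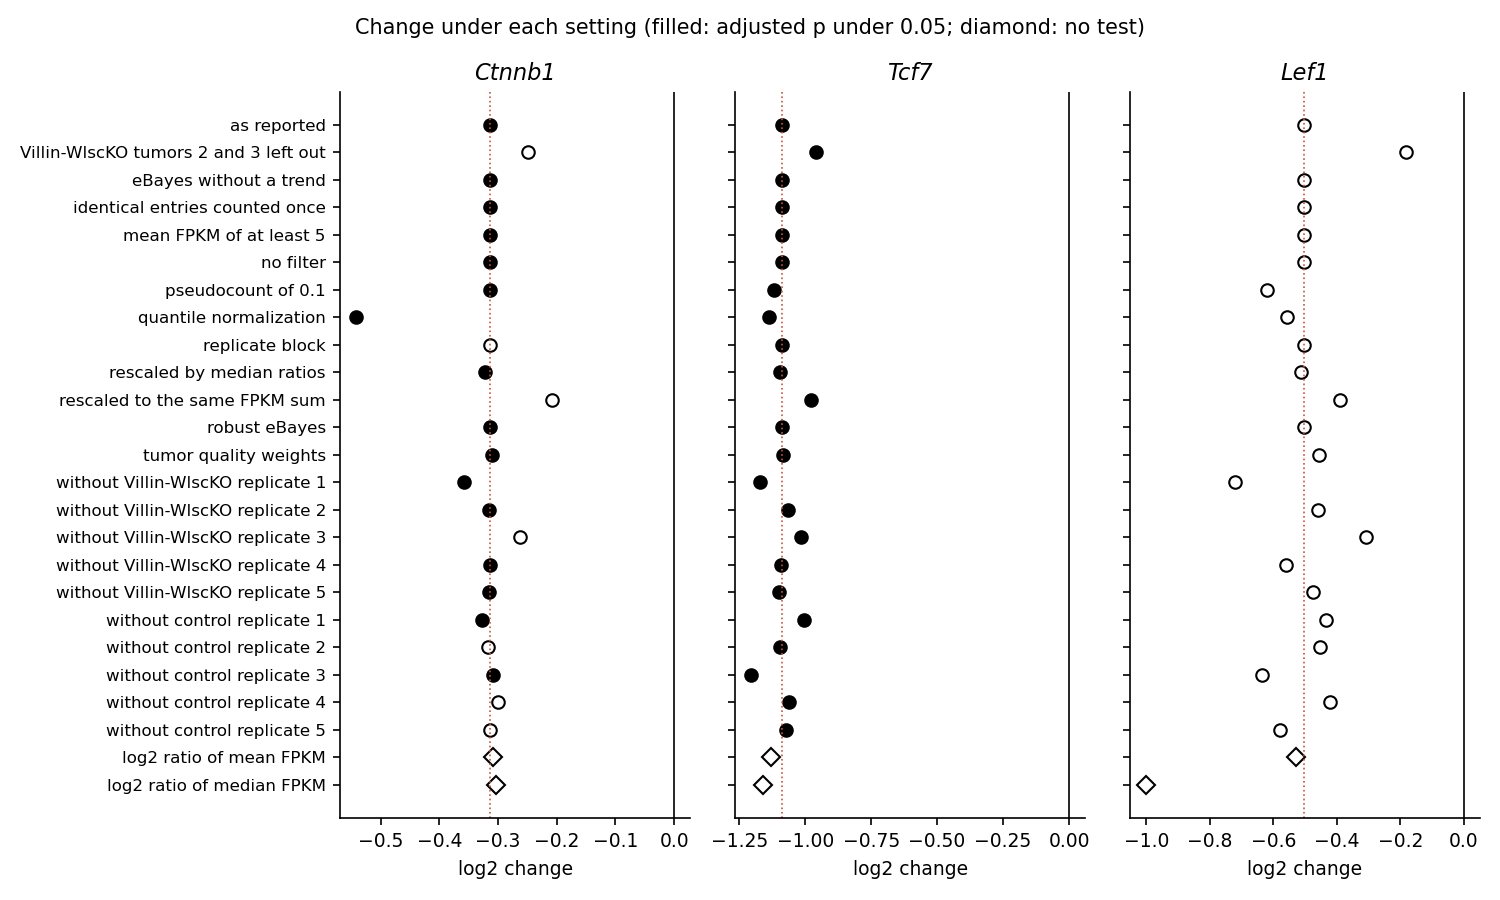
Points show the log2 change of Ctnnb1, Tcf7 and Lef1 as reported and under each alternative way of handling the data, with a panel and a linear axis of its own for each gene. Filled points have an adjusted p under 0.05, open circles do not, diamonds are ratios of group means or medians without a test, and the dotted line marks the reported value. Tcf7 stays between -1.20 and -0.96 in the tested settings and is filled in all of them, Ctnnb1 is filled in 15 of 22 alternatives, and Lef1 in none.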

How the data were processed

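RNA from macrodissected AOM/DSS tumors had been sequenced from libraries made with a stranded mRNA kit. Per the submitters' processing notes and the methods, the authors used FastQC for read quality, aligned to GRCm38.p5 by means of TopHat2 2.1.1 and quantified genes with Cufflinks 2.2.1 and Cuffdiff at default parameters, run without merged transcripts for values per tumor. The deposited values are FPKM, 1 per gene name and tumor. The annotation release is not given in the sources used here. All 10 columns were assigned to tumors by their labels. Of the 16875 names, 2419 share all values with another name. Without read counts no counting error can be given, so precision rests on the spread over the 5 tumors of a group.

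Values were analysed as log2(FPKM + 1), with a pseudocount of 1 and a mean FPKM of at least 0.5, in limma 3.58.1 (R 4.3.3) with an eBayes variance trend and no covariate, after a test on simulated data. Permutation tests and shares used numpy 2.4.6 and pandas 2.3.3 under Python 3.11.15, and figures matplotlib 3.10.9. The 10 genes and all lists were chosen with earlier results of these data known. Genes from the lists are named if past the threshold, with up to 3 of the most abundant others, and further genes are said to have been chosen after their values were seen. The alternatives were other pseudocounts, scalings, filters, eBayes settings and weights, a replicate block, each tumor left out, Villin-WlscKO tumors 2 and 3 left out, and identical entries counted once.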

Additional observations from a re-analysis of the deposited data

Results flagged for a closer look

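In 20 groups of 5 tumors, each of the 10 genes in each genotype, the highest or lowest tumor was compared with the others by Dixon's gap test, which chance exceeds in about 1 of 20 groups, and 2 groups exceeded it. Csnk1a1 was at 118.6 FPKM in control tumor 5, where the next control tumor had 186.7 FPKM. Gsk3a was at 49.7 FPKM in control tumor 3, where the next had 45.7 FPKM. The cause of neither was tested.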

How the results depend on the processing

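Tcf7 was lower and past the threshold in all 22 alternatives (-1.20 to -0.96), and Lef1 was lower in all 22 and past it in 0 (limma adjusted p between 0.0995 and 0.750). The number of genes past the threshold was 1092 without Villin-WlscKO tumors 2 and 3 against 1822, and between 1231 and 1983 with single tumors left out. Rescaling to the same FPKM sum moved the median change of all genes to 0.097 and the calls to 1385 higher and 412 lower, and quantile normalization moved them to 893 and 1125, against 1026 and 796.

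Of the 10 genes, 1 passed instead of 2 without Villin-WlscKO tumors 2 and 3, with the replicate block and with the same FPKM sum, and 1 to 2 with single tumors left out. In the settings named before single tumors, Ctnnb1 missed the threshold, with changes of -0.25, -0.31 (limma adjusted p = 0.0651) and -0.21. With single tumors left out its change was -0.36 to -0.26. It passed in 6 of these 10 fits (limma adjusted p between 0.0142 and 0.0617 over all of them). Quantile normalization gave Ctnnb1 -0.54, past the threshold. The replicate block changed no other call among the 10 genes. The labels do not say whether same-numbered tumors are pairs. Over all genes tested, after group means were removed, same-numbered tumors correlated at 0.064, -0.087, 0.063, 0.10 and 0.16. With the block the standard error was 0.064 against 0.15 for Tcf7. For Lef1 it was 0.16 against 0.29 (limma adjusted p = 0.106). It was also smaller for Axin1, Gsk3b, Csnk1a1, Tcf7l1 and Tcf7l2, and larger for Ctnnb1, Apc and Gsk3a. Pairing thus remains unknown.

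Small changes that were not called switched sign. With the same FPKM sum Axin1 was at 0.043, Gsk3a at 0.076, Gsk3b at 0.075 and Csnk1a1 at 0.030. Gsk3b was at 0.0063 without Villin-WlscKO tumors 2 and 3, and tumor quality weights gave Csnk1a1 0.0015 and Tcf7l1 -0.055. With single tumors left out Axin1 lay between -0.15 and 0.067, Gsk3a between -0.058 and 0.00077, Gsk3b between -0.058 and 0.0051 and Tcf7l1 between -0.14 and 0.24. Among the lists, T cell calls ranged from 2 to 8 of 15, Wnt target calls from 6 to 7 lower and destruction complex and turnover calls from 1 to 7 of 34 lower. The causes were not tested. With 5 tumors a group and an unknown depth, intervals as wide as those of Lef1 and Tcf7l1 leave changes of moderate size undetectable.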
